A study of Mus musculus with 6 samples.

Results

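The genes that build cholesterol and fatty acids, with the regulators that control them, were followed in mouse microglia that had shared a culture with Cd177 wild-type (WT) or Cd177 knockout (KO) neutrophils. The 33 genes were listed by name for their place in the 2 pathways, with earlier results of these data known, and were read out of a table of 55335 gene identifiers. They comprised 8 genes of the mevalonate and isoprenoid steps, 11 genes of the steps from squalene to cholesterol, 6 regulators of the sterol regulatory element-binding proteins (SREBPs) or carriers of sterol, and 8 genes of fatty acid synthesis and desaturation. Of these, 30 had a mean level of at least 1 fragment per kilobase of transcript, scaled to library size (FPKM), over the 6 libraries and were tested. The lowest group mean among the tested genes was 1.88 FPKM, so none of them passed this filter through 1 group alone.

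Bulk RNA-seq was made from primary microglia of wild-type C57BL/6 neonatal mice, which were shaken off mixed brain cultures at day 14. The microglia were cultured for 24 h with neutrophils taken by magnetic sorting from the injured spinal cord 3 days after injury, and were then sorted again as Ly6G- cells. In 3 libraries the neutrophils came from WT mice and in the other 3 from mice lacking Cd177, a surface protein of a subset of neutrophils. The microglia of both groups were wild type, so the deletion was in the neutrophils alone, and no library of microglia without neutrophils was part of the comparison. The groups are called WT and KO here after the neutrophils. The labels did not say whether the 3 libraries of a group came from separate cultures or animals, so the p-values measure the spread between these libraries, which may be technical.

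Cholesterol is built from acetyl-CoA through mevalonate and farnesyl diphosphate to squalene, and squalene is then closed into a ring and trimmed to cholesterol. Fatty acids are built from the same acetyl-CoA, which is made in the cytosol from citrate, carboxylated, joined into palmitate, and then lengthened and desaturated. Both pathways are controlled by SREBPs: when sterol in the endoplasmic reticulum is low, the escort protein SCAP carries the SREBP precursor to the Golgi, where it is cut and its active part is released, and INSIG proteins hold SCAP back when sterol is high. In the brain, lipid made locally is used for membranes, and microglia that take up myelin debris also have to store or export the cholesterol it carries.

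Promoters are shown for the called genes that moved most, at most 2 of each role group and 6 in all. That of Hmgcs1 was added, after its motif match was seen, because no other window of these genes held a sterol regulatory element core. Each runs 5′ to 3′ on the strand of its gene, from 250 bases before to 50 bases after the start of transcription, in RefSeq on GRCm38.p6. Capitals mark CCAAT boxes (CCAAT or, on the other strand, ATTGG) and the sterol regulatory element core TCACNCCAC on either strand. The windows lie at chr13:8885356-8885655 on the plus strand for Idi1, chr5:28071162-28071461 plus for Insig1, chrX:72918271-72918570 plus for Nsdhl, chr17:12960676-12960975 minus for Acat2, chr5:4104648-4104947 minus for Cyp51, chr3:129532136-129532435 plus for Elovl6 and chr13:119690101-119690400 plus for Hmgcs1.
Idi1: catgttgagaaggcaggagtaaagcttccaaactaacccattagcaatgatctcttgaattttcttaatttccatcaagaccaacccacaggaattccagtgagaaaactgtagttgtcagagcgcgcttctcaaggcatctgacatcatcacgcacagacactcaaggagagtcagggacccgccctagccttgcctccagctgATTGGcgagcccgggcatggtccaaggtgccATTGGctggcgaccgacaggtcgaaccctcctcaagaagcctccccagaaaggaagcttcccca
Insig1: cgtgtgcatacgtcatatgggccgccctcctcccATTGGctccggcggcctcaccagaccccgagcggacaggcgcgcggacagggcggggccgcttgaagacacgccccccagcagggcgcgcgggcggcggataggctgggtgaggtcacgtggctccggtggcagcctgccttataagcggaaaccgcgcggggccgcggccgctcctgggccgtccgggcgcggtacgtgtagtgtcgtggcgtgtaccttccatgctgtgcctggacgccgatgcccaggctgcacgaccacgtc
Nsdhl: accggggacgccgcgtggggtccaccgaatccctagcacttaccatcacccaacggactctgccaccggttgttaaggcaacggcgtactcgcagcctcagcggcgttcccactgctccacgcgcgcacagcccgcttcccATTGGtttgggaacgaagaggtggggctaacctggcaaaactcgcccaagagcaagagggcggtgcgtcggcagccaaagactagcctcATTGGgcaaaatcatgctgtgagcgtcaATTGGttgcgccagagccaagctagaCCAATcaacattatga
Acat2: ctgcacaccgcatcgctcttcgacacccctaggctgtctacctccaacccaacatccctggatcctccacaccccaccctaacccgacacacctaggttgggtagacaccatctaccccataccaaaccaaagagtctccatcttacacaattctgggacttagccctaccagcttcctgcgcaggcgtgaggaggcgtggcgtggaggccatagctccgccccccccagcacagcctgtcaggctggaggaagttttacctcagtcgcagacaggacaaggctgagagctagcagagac
Cyp51: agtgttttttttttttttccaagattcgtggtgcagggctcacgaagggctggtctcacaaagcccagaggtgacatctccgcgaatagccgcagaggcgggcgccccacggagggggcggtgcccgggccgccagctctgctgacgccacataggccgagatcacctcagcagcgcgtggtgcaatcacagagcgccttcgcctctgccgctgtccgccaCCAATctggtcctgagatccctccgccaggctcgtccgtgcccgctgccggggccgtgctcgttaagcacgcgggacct
Elovl6: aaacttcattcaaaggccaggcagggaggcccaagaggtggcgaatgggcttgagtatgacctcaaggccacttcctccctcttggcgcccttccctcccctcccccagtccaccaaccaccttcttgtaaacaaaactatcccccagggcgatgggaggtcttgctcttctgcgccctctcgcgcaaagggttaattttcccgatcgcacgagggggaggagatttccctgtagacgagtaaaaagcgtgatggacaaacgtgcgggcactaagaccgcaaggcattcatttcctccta
Hmgcs1: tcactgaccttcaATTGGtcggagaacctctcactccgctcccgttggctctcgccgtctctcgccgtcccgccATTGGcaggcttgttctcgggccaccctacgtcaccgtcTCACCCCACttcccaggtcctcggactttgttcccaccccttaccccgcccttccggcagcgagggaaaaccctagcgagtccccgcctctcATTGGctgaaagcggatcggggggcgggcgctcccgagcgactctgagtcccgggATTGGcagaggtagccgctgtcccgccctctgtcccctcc

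Windows were found for 26 of the 33 genes, 5 of them with more than 1 start, which gave 34 windows. The core TCACNCCAC was found in 1 of the 34 windows (2.94%), against 1.24% of all 32851 mouse windows of the same length. The match was TCACCCCAC in Hmgcs1, 137 bases before the start. The CCAAT box was found in 22 windows (64.7%, against 37.4% of all), the GC box GGGCGG in 25 (73.5%, against 35.7%) and the E-box CACGTG in 6 (17.6%, against 7.15%), each counted on both strands. In Hmgcs1 the core shared no base with the other motifs. Of the promoters printed, those of Hmgcs1 and Nsdhl held 4 CCAAT boxes each, while those of Acat2 and Elovl6 held none. These are matches of letters in a fixed window and were not tied to the binding of any factor. The 32851 windows were not chosen by expression in these cells, and several starts of 1 gene were counted apart. Whether the shares differ from those of other expressed genes was therefore not tested.

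Most of the lipid synthesis genes were higher in microglia cultured with KO neutrophils. Of the 30 genes tested, 24 (80%) were higher and 1, Insig2, was lower at an adjusted p under 0.05 (limma, adjusted over all 11395 genes tested), and 5 did not pass. Over all genes tested, 43.3% passed in either direction, 24.5% higher and 18.8% lower. The median difference was 0.37 on the log2(FPKM + 1) scale over the 30 genes and 0.02 over all genes, and the single values ran from -0.24 for Insig2 to 1.08 for Idi1. On this scale the change of genes with low FPKM is understated. Every KO library lay above every WT library for 26 of the 30 genes (86.7%), which was so for 31.3% of all genes tested. An exact permutation test of 3 against 3 libraries cannot give a two-sided p under 0.1 for any single gene. On the TPM scale, where each library is brought to the same sum, 22 genes were higher and 2 lower, against 19.2% and 23.3% of all genes tested. The split of all calls moved there from 56.6% higher and 43.4% lower to 45.1% higher and 54.9% lower.

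**Figure D1:**
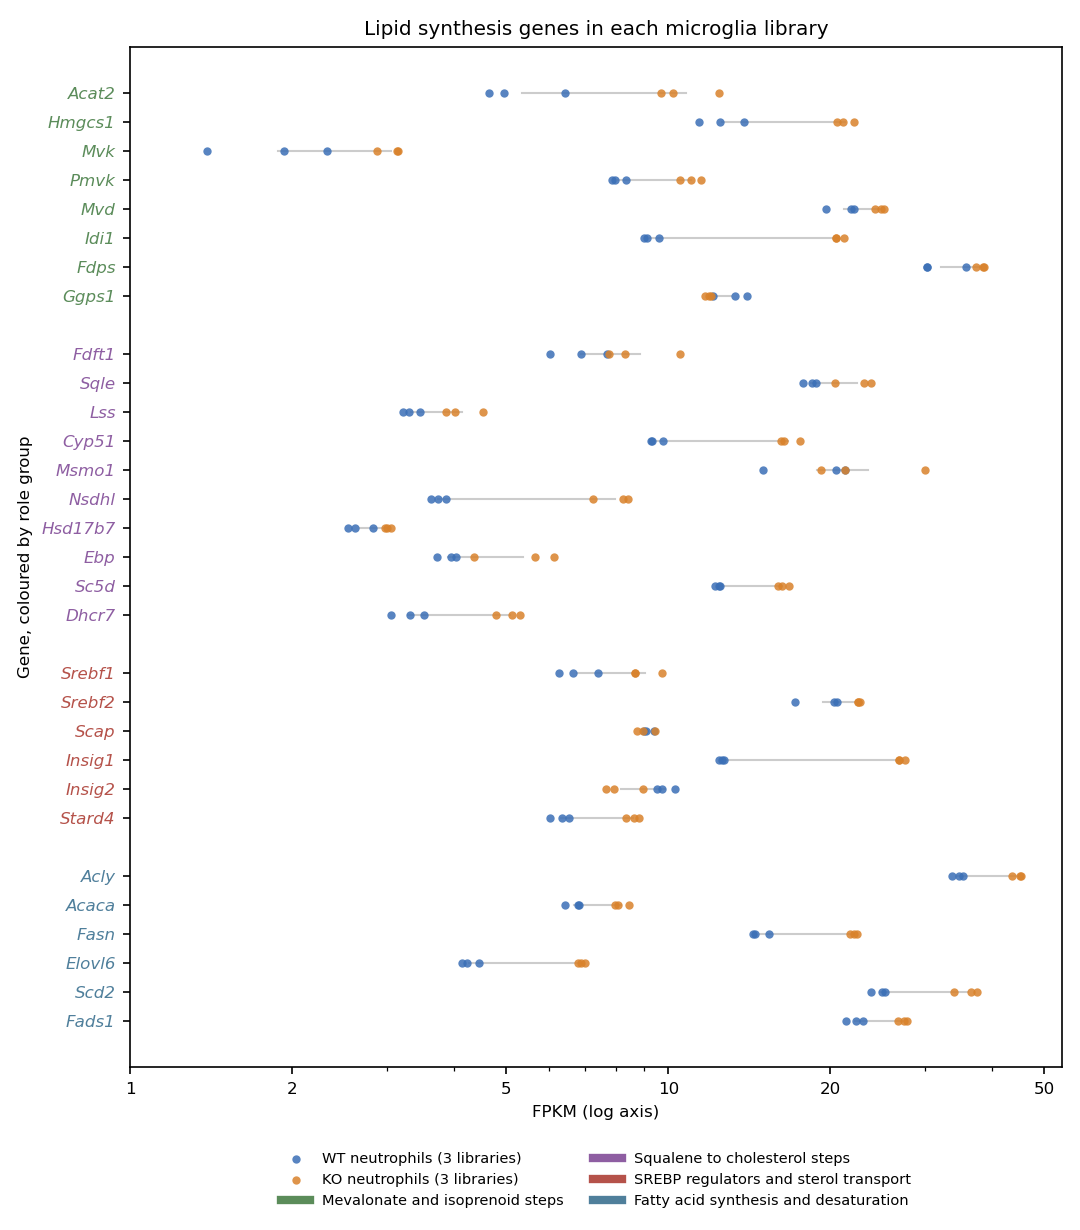
Level of each of the 30 tested genes in FPKM (log axis) in the 3 WT and 3 KO libraries, with gene names coloured by role group and a grey line between the group means. The KO points lie to the right of the WT points for 26 genes, the means are farthest apart for Idi1, Insig1 and Nsdhl, and the points of Msmo1 and Scap overlap.

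The changes were small for most genes. A fitted rise past 2-fold, the size used in the study's methods, together with p under 0.05 before adjustment was met by 2 of the 30 genes, Idi1 and Insig1, and by 0.553% of all genes tested in this direction. As plain ratios of mean FPKM, 4 genes (Idi1, Insig1, Nsdhl and Acat2) were more than 2 times as high with KO neutrophils. The FPKM of all 33 genes summed to 360, 356 and 358 in the WT libraries and to 499, 482 and 474 in the KO libraries. The group means of these sums were 358 ± 1.86 and 485 ± 12.9 (SD, n = 3 each), a ratio of 1.36, or 1.31 after all libraries were scaled to a common sum. By role group the sums were 1.37 times higher for the mevalonate steps, 1.37 for the steps after squalene, 1.32 for the regulators and 1.35 for the fatty acid genes. Most of the regulators' difference came from Insig1: without it their sums had means of 51.5 and 57.5 FPKM, a ratio of 1.12.

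Mevalonate and isoprenoid steps were higher in 7 of 8 genes, with a median difference of 0.45 log2 units. Acat2 joins 2 molecules of acetyl-CoA in the cytosol. It stood at 4.96, 4.65 and 6.42 FPKM in the WT libraries and 12.4, 9.71 and 10.2 in the KO libraries. The lowest KO library was above the highest WT library, and the difference was 0.89 log2 units (SE 0.13, adjusted p = 0.00213). Hmgcs1, the synthase that makes HMG-CoA, stood at 11.4, 13.8 and 12.5 FPKM with WT and 22.1, 20.6 and 21.1 with KO neutrophils. The groups did not overlap and the difference was 0.72 log2 units (SE 0.068, adjusted p = 0.000352). Idi1, the isomerase that turns isopentenyl diphosphate into dimethylallyl diphosphate, was the lipid synthesis gene that rose most. It was at 9.14, 9.03 and 9.62 FPKM in WT libraries and 20.5, 21.2 and 20.5 in KO libraries. Both groups were tight around their means of 9.26 ± 0.309 and 20.7 ± 0.43 FPKM (SD, n = 3 each), 2.24 times apart. The difference of 1.08 log2 units (SE 0.037, adjusted p = 4.57e-06) ranked 56th among the rises of all genes tested.

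The kinases and the decarboxylase between these enzymes moved less. Mvk, mevalonate kinase, was the lowest tested gene of the pathway, at 1.39, 2.32 and 1.93 FPKM with WT and 3.15, 2.87 and 3.13 with KO neutrophils. The groups stayed apart and the difference was 0.50 log2 units (adjusted p = 0.0178), which rose to 0.0551 without KO replicate 1 and 0.0544 without KO replicate 3. Pmvk, phosphomevalonate kinase, went from a mean of 8.06 to 11 FPKM (difference 0.40, adjusted p = 0.000738) and Mvd, the decarboxylase, from 21.2 to 24.8 (difference 0.22, adjusted p = 0.0141). Both were higher in each KO library than in any WT library. Fdps, which makes farnesyl diphosphate, was the most abundant gene of this group, at 35.8, 30.2 and 30.2 FPKM with WT and 38.5, 38.6 and 37.3 with KO neutrophils. WT replicate 1 lay close to the KO libraries, and the difference of 0.25 (adjusted p = 0.0267) was no longer called without WT replicates 2 or 3 or any of the 3 KO replicates, with adjusted p from 0.0553 to 0.0776, nor on the TPM scale (0.0584).

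Ggps1 was the gene of the mevalonate group with a negative difference. It makes geranylgeranyl diphosphate, which is used for protein prenylation and lies on the branch that leads away from sterol. Its levels were 13.3, 12.1 and 14.0 FPKM in WT libraries and 11.9, 12.0 and 11.7 in KO libraries. The KO libraries were all lower, by a small margin, and the difference of -0.13 (95% interval -0.26 to 0.00) did not pass (adjusted p = 0.0998). Without WT replicate 2 it was called lower (-0.18, adjusted p = 0.021), as it also was on the TPM scale (-0.18, adjusted p = 0.046).

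In the steps from squalene to cholesterol, 7 of 10 tested genes were higher and none was lower, with a median difference of 0.35 log2 units, and 10 of 10 had a positive difference. Nsdhl and Cyp51, which remove methyl groups from the sterol ring, rose most. Nsdhl, the sterol 4-alpha-carboxylate dehydrogenase, stood at 3.73, 3.87 and 3.63 FPKM with WT and 8.24, 7.24 and 8.42 with KO neutrophils. The ratio of the means was 2.13 and the difference 0.92 log2 units (SE 0.063, adjusted p = 8.54e-05). Cyp51, the lanosterol 14-alpha-demethylase, stood at 9.79, 9.28 and 9.31 FPKM with WT and 17.6, 16.2 and 16.4 with KO neutrophils. In both genes the KO libraries were well clear of the WT libraries, and for Cyp51 the difference was 0.76 (SE 0.045, adjusted p = 4.13e-05).

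Sqle, squalene epoxidase, a rate-limiting enzyme of the pathway, had a smaller difference than either of them. It stood at 18.5, 17.8 and 18.8 FPKM in WT libraries and 23.8, 23.1 and 20.4 in KO libraries. KO replicate 3 was nearer to the WT libraries than to the other KO libraries, and the difference was 0.27 log2 units (SE 0.06, adjusted p = 0.0124). Other steps of this arm were higher as well, though the calls of Lss and Ebp did not hold when some libraries were left out. Dhcr7, the reductase that makes cholesterol from 7-dehydrocholesterol, went from a mean of 3.29 to 5.08 FPKM (difference 0.50, adjusted p = 0.00108). Sc5d, the lathosterol desaturase, went from 12.4 to 16.3 FPKM (difference 0.38, adjusted p = 0.000215). Lss, the cyclase that makes lanosterol, went from 3.33 to 4.14 FPKM (difference 0.25, adjusted p = 0.0229), and it was lost without WT replicate 1 (0.063), WT replicate 2 (0.0668) or KO replicate 2 (0.0559). Ebp, the sterol isomerase, stood at 3.71, 3.95 and 4.04 FPKM with WT and 6.14, 4.35 and 5.65 with KO neutrophils. KO replicate 2 was close to the WT libraries, and the difference of 0.37 (adjusted p = 0.0354) passed without KO replicate 2 but not without any other library (0.0704 to 0.0967 without a WT replicate, 0.0886 without KO replicate 1 and 0.0998 without KO replicate 3).

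Among the remaining genes of this arm, 3 did not pass and 1 was too low to test. Fdft1, squalene synthase, the first step committed to sterol, stood at 6.88, 6.02 and 7.71 FPKM with WT and 7.75, 10.5 and 8.3 with KO neutrophils. The groups touched without overlapping, and the difference of 0.32 (95% interval 0.02 to 0.62) had an adjusted p of 0.0819 and was 0.20 without KO replicate 2. Of its exonic bases 18.3% overlap the opposite-strand gene Ctsb, a protease gene at a mean of 516 FPKM in WT and 525 in KO libraries, and whether the counting used strand was not given in the sources used here. Msmo1, the methylsterol monooxygenase, stood at 20.5, 21.3 and 15.0 FPKM with WT and 30, 19.2 and 21.3 with KO neutrophils. These ranges overlapped, and the interval of the difference held both a fall and a rise (0.29, 95% interval -0.18 to 0.75, adjusted p = 0.269). The difference was 0.14 without WT replicate 3 and 0.11 without KO replicate 1. Hsd17b7, the 3-ketosteroid reductase, had means of 2.67 and 3.00 FPKM, and its difference of 0.13 had an adjusted p of 0.104, or 0.0486 without the variance trend, where it was called higher. Tm7sf2, a sterol reductase, was at 0.292, 0.313 and 0.33 FPKM with WT and 0.432, 0.414 and 0.37 with KO neutrophils and was not tested. It shares 12.1% of its exonic bases with Vps51 on the same strand, which had means of 7.51 and 6.61 FPKM.

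**Figure D2:**
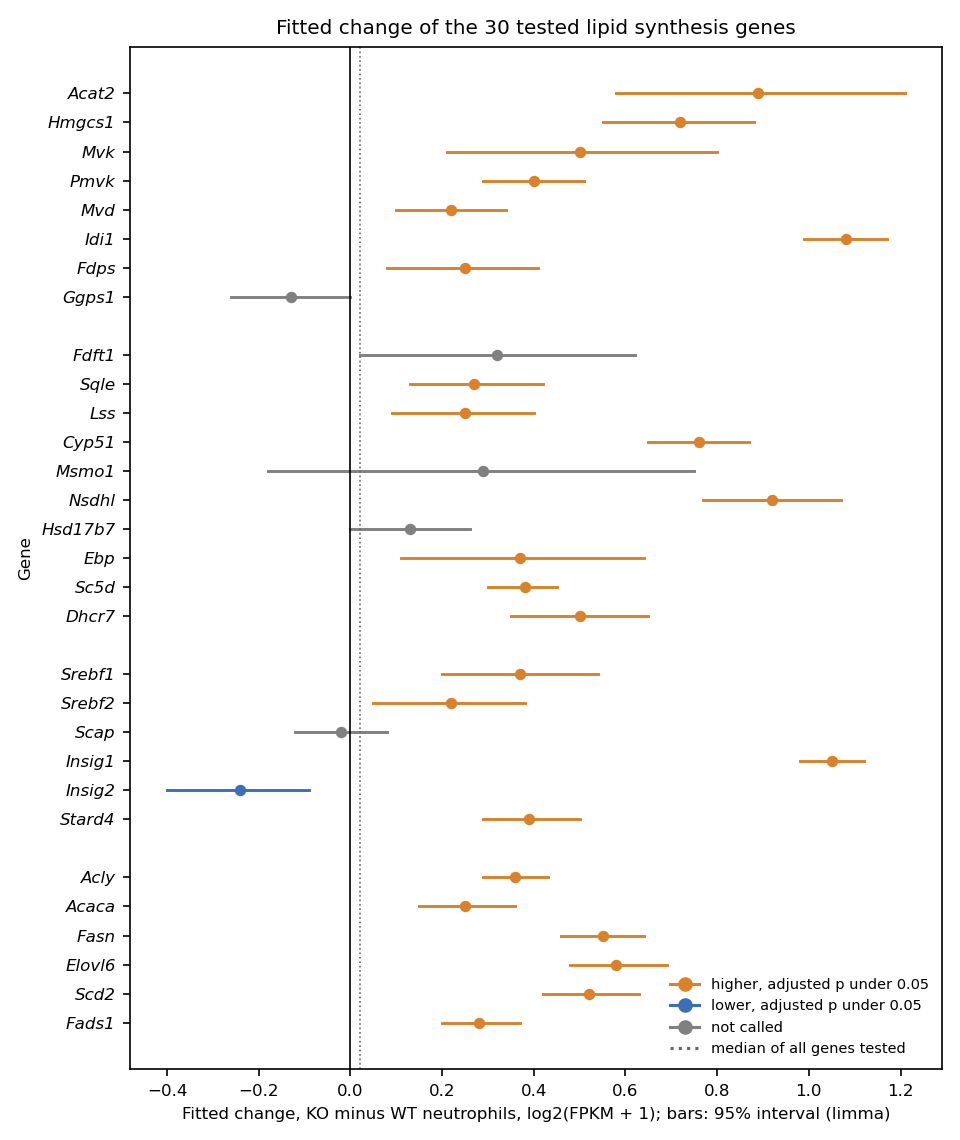
Fitted difference, KO minus WT, of the 30 tested genes in log2(FPKM + 1) with its 95% interval from limma (n = 3 libraries per group), ordered by role group. Points to the right of 0 are higher with KO neutrophils; the dotted line marks the median of all genes tested (0.02), Insig2 is the gene called lower, and the grey intervals belong to the 5 genes that were not called.

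Among the SREBP regulators and sterol carriers, 4 of 6 genes were higher and 1 was lower, and the INSIG genes moved in opposite directions. Insig1 is itself a classical target of SREBP-2. It stood at 12.4, 12.7 and 12.6 FPKM in WT libraries and 26.9, 26.8 and 27.5 in KO libraries. The 3 libraries of each group lay close together, and the difference was 1.05 log2 units (SE 0.028, adjusted p = 1.66e-06), the 63rd largest rise of all genes tested. Insig2, which is less dependent on SREBP, stood at 9.51, 9.74 and 10.3 FPKM with WT and 8.97, 7.65 and 7.93 with KO neutrophils. It was the gene that fell, by 0.24 on the log2 scale (SE 0.065, adjusted p = 0.024). Its call was lost without WT replicate 2 (0.0561), WT replicate 3 (0.0724), KO replicate 2 (0.0689) or KO replicate 3 (0.072). The ratio of Insig1 to Insig2 was 1.3, 1.3 and 1.22 in WT libraries and 2.99, 3.5 and 3.46 in KO libraries, with no overlap (exact two-sided permutation p = 0.1, the smallest that this design allows).

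Both SREBP genes were higher by a small amount. Srebf1, which encodes SREBP-1, the form more tied to fatty acid genes, stood at 7.4, 6.65 and 6.27 FPKM with WT and 8.67, 9.75 and 8.69 with KO neutrophils. The groups were apart and the difference was 0.37 log2 units (SE 0.072, adjusted p = 0.00745). Srebf2, which encodes SREBP-2, the form more tied to cholesterol genes, stood at 17.2, 20.6 and 20.3 FPKM with WT and 22.7, 22.5 and 22.5 with KO neutrophils. Its difference of 0.22 (SE 0.068, adjusted p = 0.0426) lay near the threshold and was lost without WT replicate 3 (0.0524), KO replicate 1 (0.102), KO replicate 2 (0.0967) or KO replicate 3 (0.095). It was also lost on the TPM scale (0.0869), without a filter (0.0978) and without the variance trend (0.0552). Without WT replicate 1, the lowest WT library, the difference was 0.14 (adjusted p = 0.0213). The ratio of Srebf2 to Srebf1 overlapped between the groups (exact two-sided permutation p = 0.3). Scap, the escort of both, did not pass, at 9.09, 9.4 and 9.01 FPKM with WT and 9.44, 8.98 and 8.74 with KO neutrophils (difference -0.02, 95% interval -0.12 to 0.08, adjusted p = 0.774). Stard4, a cytosolic carrier of cholesterol, stood at 6.04, 6.53 and 6.34 FPKM with WT and 8.35, 8.65 and 8.81 with KO neutrophils. It was higher in each KO library, by 0.39 log2 units (SE 0.044, adjusted p = 0.000715).

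All 6 tested genes of fatty acid synthesis and desaturation were higher, with a median difference of 0.44 log2 units, and in each of them the KO libraries lay above the WT libraries. Acly, which makes cytosolic acetyl-CoA from citrate for both pathways, had the highest mean of the 33 genes in each group. In WT replicate 1 Fdps was above it (35.8 FPKM). Acly stood at 33.7, 34.7 and 35.3 FPKM with WT and 45.1, 45.3 and 43.5 with KO neutrophils. Its difference was 0.36 log2 units (SE 0.029, adjusted p = 0.000186). Acaca, the acetyl-CoA carboxylase, went from a mean of 6.69 to 8.16 FPKM (difference 0.25, adjusted p = 0.00451). Fasn, fatty acid synthase, stood at 15.4, 14.5 and 14.4 FPKM with WT and 22.1, 22.4 and 21.8 with KO neutrophils. The KO mean was 1.5 times the WT mean, and the difference was 0.55 (SE 0.036, adjusted p = 6.76e-05).

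The tested elongation and desaturation genes were higher as well. Elovl6, which lengthens palmitate to stearate, stood at 4.22, 4.13 and 4.45 FPKM with WT and 6.87, 7.01 and 6.79 with KO neutrophils, the largest difference of the fatty acid genes (0.58, SE 0.044, adjusted p = 0.000126). Scd2, the stearoyl-CoA desaturase that dominates in brain, stood at 25, 23.8 and 25.3 FPKM with WT and 36.6, 37.4 and 34.0 with KO neutrophils. The groups were apart, with a difference of 0.52 (SE 0.045, adjusted p = 0.000217). Its paralog Scd1 was listed at 0 in 5 libraries and at 0.0256 FPKM in KO replicate 2, and the partition of reads between these similar genes is uncertain. Fads1, the delta-5 desaturase of polyunsaturated fatty acids, went from a mean of 22.2 to 27.3 FPKM (difference 0.28, adjusted p = 0.00112), while Fads2, the delta-6 desaturase, was listed at 0 in all 6 libraries. Neither Scd1 nor Fads2 was tested, and a value listed at 0 may be a failed estimate.

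**Figure D3:**
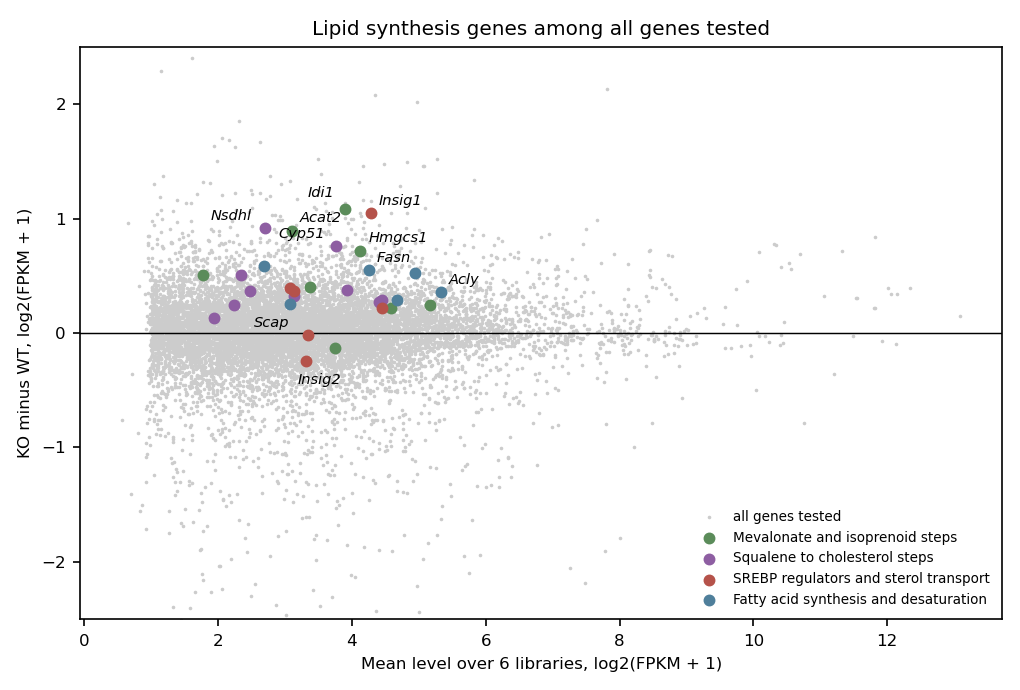
Fitted difference, KO minus WT, against mean level over the 6 libraries, both in log2(FPKM + 1), for all 11395 genes tested (grey) and the 30 lipid synthesis genes (coloured by role group); 28 grey genes lie outside the axis at 2.5 either way. The lipid synthesis genes sit mostly above 0, with Idi1 and Insig1 at the top near 1, within the spread that other genes reach.

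Of 86 further genes in 6 lists around the pathway, 71 were tested, of which 23 (32.4%) were higher and 19 (26.8%) lower, against 24.5% and 18.8% of all genes tested. Their median difference was 0.01 log2 units, against 0.02 over all genes. The list nearest to the synthesis genes, other SREBP targets of the sterol branch, had 5 of 6 tested genes higher and none lower, with a median of 0.30. Among them Aacs, which makes acetoacetyl-CoA from ketone bodies, stood at 7.42, 7.72 and 8.16 FPKM with WT and 10.6, 10.5 and 10.3 with KO neutrophils (adjusted p = 0.000761). Erg28, a scaffold of the sterol demethylation enzymes, stood at 6.65, 6.38 and 6.57 FPKM with WT and 8.39, 8.16 and 8.39 with KO neutrophils (adjusted p = 0.00107). Of the 12 genes that process SREBPs or degrade sterol-regulated proteins, 3 were higher and 4 lower (median -0.03). Erlin1, an endoplasmic reticulum protein that binds cholesterol and takes part in this degradation, fell from 40.5, 41.2 and 43.2 to 29.4, 30.3 and 29.7 FPKM (adjusted p = 8.53e-05). Mbtps2, the protease that makes the second cut in SREBPs, rose (adjusted p = 0.00347).

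Of the 13 genes that use isoprenoids, 1 was higher (7.69%) and 3 lower (23.1%), with a median of -0.05. Nus1, a subunit of the enzyme that makes dolichol chains, fell by 0.32 (adjusted p = 0.000288), Rabggta, which prenylates Rab proteins, fell by 0.23 (adjusted p = 0.00591), and Coq2, an enzyme of coenzyme Q synthesis, rose by 0.24 (adjusted p = 0.00438), all in log2 units. Among other fatty acid synthesis and activation genes, 5 of 18 were higher and 5 lower (27.8% each, median 0.00). The 3 with the smallest p were all lower: Acsl5 and Acsl4, which attach coenzyme A to fatty acids, by 0.33 and 0.28, and Me1, which supplies NADPH, by 0.29 (adjusted p = 9.88e-05, 0.000221 and 0.000159). For triglyceride and phosphatidate synthesis, 4 of 12 were higher and 4 lower (33.3% each, median 0.03). Dgat2, which makes the final step to triglyceride, stood at 15.4, 14.6 and 17.0 FPKM with WT and only 3.84, 4.76 and 4.79 with KO neutrophils, a difference of -1.61 log2 units (SE 0.09, adjusted p = 3.4e-05). Gpat3 and Agpat4, acyltransferases of the steps before it, differed by -0.84 and -0.78 (adjusted p = 0.000449 and 0.00236).

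In the list of sterol sensing, storage and export, 5 of 11 tested genes were higher and 3 lower (median 0.30). These were 45.5% and 27.3%, against 24.5% and 18.8% of all genes tested. Lipa, the lysosomal lipase that frees cholesterol from its esters, stood at 19.2, 19.7 and 19.3 FPKM with WT and 37.5, 38.1 and 37.1 with KO neutrophils (difference 0.92, SE 0.026, adjusted p = 2.06e-06). Abca1, which exports cholesterol, moved the other way, from 12.8, 12.9 and 12.9 to 6.24, 6.16 and 6.26 FPKM (difference -0.94, SE 0.033, adjusted p = 4.9e-06). Export genes did not all fall: Abcg1, another exporter, was higher, at means of 6.76 and 9.06 FPKM (difference 0.38, adjusted p = 0.00442). Npc2, which carries cholesterol within the lysosome, fell by 0.53 on the log2 scale (adjusted p = 3.46e-05).

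**Figure D4:**
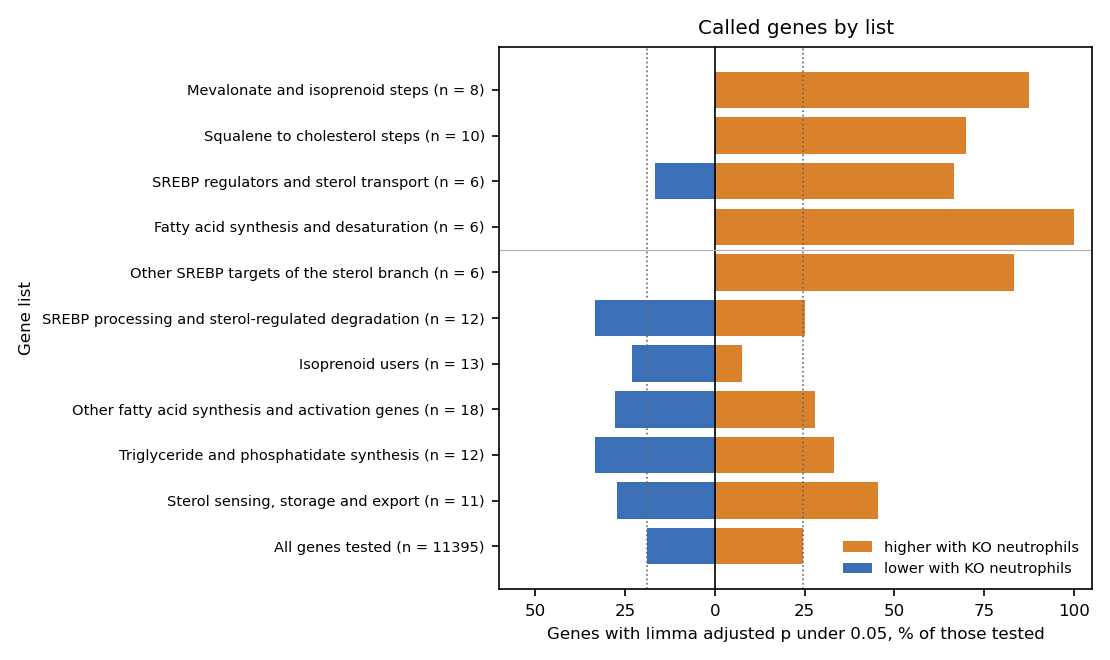
Percentage of the tested genes of each list that were called higher (right, orange) or lower (left, blue) with KO neutrophils at a limma adjusted p under 0.05, with the number tested in brackets; dotted lines mark the shares of all genes tested, 24.5% higher and 18.8% lower. The 4 upper bars are the role groups of the synthesis genes, of which 1 (the regulators) held a gene called lower, while 5 of the 6 lists around the pathway held genes called in both directions.

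The libraries differed in other ways between the groups. Mitochondrial genes took 11.1% to 11.32% of the FPKM sum in WT and 14.31% to 14.62% in KO libraries. The part of this in the results was not tested beyond scaling to a common sum without these genes. With that scaling 24 lipid synthesis genes were again higher and 1 lower, against 24.8% and 18.5% of all genes tested. The 15 microglia and macrophage markers summed to 830 to 866 FPKM with WT and 974 to 1016.1 with KO neutrophils. Of the 10 tested, 6 were higher and 2 lower: Cd68 went from a mean of 372 to 491 FPKM and Trem2 from 12 to 28, while Adgre1 fell from 101 to 39.3 (adjusted p = 1.74e-06) and Cx3cr1 from 2.74 to 1.14 (adjusted p = 0.00148). P2ry12 reached at most 0.148 FPKM, Tmem119 0.793, Aif1 0.282 and C1qb 0.222, and C1qa was listed at 0 in all libraries. These 5 markers were too low to test, and why they were low was not tested. Of 14 neutrophil markers, 6 (with Ly6g, S100a9, Mpo and Elane among them) were listed at 0 in all libraries, and the sum without Lcn2, which fell from between 109 and 113 FPKM to at most 0.314, was 2.03 to 2.3 with WT and 0.791 to 1.27 with KO neutrophils. Of the astrocyte markers, Aldoc was tested and was higher, at means of 12.8 and 16.1 FPKM (adjusted p = 0.00278), and the others summed to at most 0.352. Of the oligodendrocyte markers, Cnp was tested and was higher, at means of 2.83 and 3.98 FPKM (adjusted p = 0.00521), and the others summed to 0.267 to 0.379 with WT and 0.28 to 0.339 with KO neutrophils. With these genes, the list sums were 1.25 and 1.36 times higher. Fibroblast and vascular markers summed to 0.23 to 0.307 with WT and 0.0551 to 0.0777 with KO neutrophils. The part of the marker differences in the lipid results was not tested, and in these bulk libraries fewer cells of a type and less RNA per cell cannot be told apart.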

How the data were processed

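RNA-seq of 6 libraries was taken from the deposited table of FPKM per gene. The authors made these values; the submitters' processing notes name fastp 0.17.1, HISAT2 2.1.0, DESeq2 1.18.1 and R 3.4.3, while the quantifier, the genome build and the strand setting were not given in the sources used here. The labels and the study's methods name different library kits. Sums of FPKM ran from 314084.9 to 315632.4 in WT and from 323588.4 to 326868.0 in KO libraries. Whole fragments could not be recovered, since 18% to 26.1% of low values were whole within 0.05 of a fragment, against 10.0% by chance. Depth therefore remained unknown and no count test was run.

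Gene identifiers were paired with symbols through GENCODE M21 (55154 of 55335). log2(FPKM + 1) of genes averaging 1 FPKM or more over the libraries was fitted with limma 3.58.1 in R 4.3.3 (eBayes with trend), KO minus WT, and p-values were Benjamini-Hochberg adjusted over all 11395 genes. The script was tested on simulated data. Single values were compared with exact two-sided permutation tests. The synthesis genes and all lists were chosen with earlier results of these data known. All 33 genes are accounted for. Values in every library are given for Hmgcs1, Sqle, Srebf1, Srebf2, Insig1, Insig2, Scap, Stard4, Fasn and Scd2. They are also given for up to 6 of the largest rises and falls, and for others where the libraries bear on the call. Up to 3 genes with the smallest p are named per list around the pathway, and Abcg1 was added beside Abca1. Some genes this rule would name are not reported here. Alternatives were a pseudocount of 0.1, no filter, a mean of at least 5 FPKM, the TPM scale, a common sum without mitochondrial genes, median centring, quantile normalization, no variance trend, the replicate number as a block, and leaving out each library.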

Additional observations from a re-analysis of the deposited data

How the results depend on the processing

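The number of lipid synthesis genes called higher was 24 in the fit reported. It lay between 19 (no filter on low values) and 24 over the other 9 fits of all 6 libraries. When a library was left out it lay between 20 and 22. The share of all genes called higher was 24.5% in the fit reported, 9.75% without a filter and 29.4% at a mean of at least 5 FPKM. This share was 20% to 21.1% when a library was left out. Of the 24 genes, 19 passed in every setting that tested them. Without a filter the calls of Mvk (adjusted p = 0.0539), Fdps (0.0673), Lss (0.0574), Ebp (0.0886), Srebf2 (0.0978) and Insig2 (0.0554) were lost. The number called lower was 2 on the TPM scale and 0 without a filter (limma, with 1 at an unadjusted p under 0.05). Of all genes, 23.3% and 8.13% were lower in these fits. The number ran from 0 to 1 when a library was left out. It was 0 without WT replicate 3, KO replicate 2 or KO replicate 3 (1 at an unadjusted p under 0.05 in each). Without WT replicate 2 the gene called lower was Ggps1 (adjusted p = 0.021) and not Insig2 (0.0561). With a pseudocount of 0.1, 4 genes were past 2-fold. On the TPM scale the summed level of the regulators was 1.28 and that of the fatty acid genes 1.31 times higher with KO neutrophils. Scap, which was not called in any setting, ran from -0.04 to 0.01 when a library was left out, the positive value being that without KO replicate 3. Of 445 gene values, 405 kept their direction and call, 36 lost the call and 3 gained it.

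Replicate numbers gave no pairing: the deviations of same-numbered libraries correlated at -0.075, -0.052 and -0.005. With the replicate block, 4212 of all genes were called in place of 4930 (20.8% higher and 16.1% lower). Of the lipid synthesis genes, 21 were higher and 0 lower (limma, with 1 lower at an unadjusted p under 0.05). The calls lost with the block were those of Lss (adjusted p = 0.0643), Ebp (0.0588), Srebf2 (0.0616) and Insig2 (0.0565). Depth was unknown, so what it limits for genes listed at 0 cannot be stated.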
